A study of Mus musculus with 9 samples.

Results

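The tricarboxylic acid (TCA) cycle genes and the genes that admit pyruvate to it were followed in RNA from whole mouse kidney, as 34 protein-coding genes chosen by name from the 56305 gene identifiers of a count table. They comprise 17 genes of cycle enzymes, 4 subunit genes of the pyruvate dehydrogenase complex, its 4 kinases and 2 phosphatases, both subunits of the mitochondrial pyruvate carrier, 4 cytosolic enzymes that exchange carbon with the cycle, and glutamate dehydrogenase. All 34 had enough counts to be tested, among 15974 tested genes. The 9 libraries fall into 3 groups of 3. The first group is labelled PFKFB3 WT, littermates of the knockout mice, after a sham operation. The second is PFKFB3 WT at day 14 after ischemia-reperfusion injury (IRI), in which both renal arteries were closed with a clamp for 30 minutes. The third is PFKFB3 CKO, also written Pfkfb3ΔPTC, at day 14 after the same injury. In these mice Pfkfb3, whose enzyme makes an activator of glycolysis, is deleted conditionally in proximal tubular cells, and the design text names the part of PFKFB3 in renal fibrosis as the question. The sources used here do not give the promoter that drives Cre, the age or the strain, and a knockout sham group was not analysed here. Whether each library came from its own mouse is not in the labels, and p-values therefore cover the spread between these samples alone, which may be technical.

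Pyruvate made by glycolysis crosses the inner mitochondrial membrane through the pyruvate carrier, a complex of MPC1 and MPC2, and is turned into acetyl-CoA by pyruvate dehydrogenase. The kinases PDK1 to PDK4 switch this enzyme off by phosphorylating its E1 alpha subunit, and the phosphatases PDP1 and PDP2 switch it on again. Citrate synthase joins acetyl-CoA to oxaloacetate, and the cycle oxidises the resulting citrate while it delivers electrons to the respiratory chain. The proximal tubule is rich in mitochondria and is known for fuelling reabsorption mainly by oxidation, with little glycolysis. RNA levels do not measure the activity of these enzymes, whose phosphorylation was not analysed here.

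Library totals ran from 15626792 to 19987842 counts. Pfkfb3 itself measured 19.99, 20.2 and 21.9 CPM (counts scaled by library size with edgeR's TMM factors) in sham libraries, 36.2, 34.4 and 25.3 in those of injured wild-type and 25.2, 19.7 and 17.3 in those of injured knockout. Its log2 difference between injured knockout and injured wild-type was −0.62 ± 0.17 (SE, adjusted p = 0.00773, edgeR's quasi-likelihood test), and that between injured knockout and sham was 0.01 ± 0.17 (adjusted p = 0.988). Other cells of the whole kidney keep the gene, and which exons are deleted was not known here. Proximal tubule markers (20 genes) summed to 42440 to 44465 CPM in sham libraries, 7467 to 11575 in those of injured wild-type and 36290 to 39644 in those of injured knockout. Macrophage markers (10 genes) summed to 149 to 207, 1679 to 1950 and 139 to 179 CPM in the same order, and fibroblast markers (8 genes) to 141 to 233, 2097 to 2834 and 157 to 309 CPM. Thick ascending limb markers (6 genes) summed to 3235 to 4859, 1460 to 1545 and 2291 to 2918 CPM in the same order. No gene of these 4 lists was at 0 in all libraries. The share of counts from the mitochondrial genome was 8.46 to 11.3%, 6.08 to 7.20% and 12.7 to 13.9%, so it was lowest in injured wild-type and highest in injured knockout. In bulk tissue, fewer cells of a type and less RNA per cell cannot be told apart, and the part of these shifts in the results that follow was not tested. Injured knockout replicate 1 stood apart from the other 2 knockout libraries, with 111 CPM of podocyte markers (5 genes) against 411 and 431, and 2300 CPM of collecting duct markers (8 genes) against 1090 and 1103.

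At day 14 after injury the wild-type kidneys held less RNA of nearly every gene of the set. Of the 34 genes, 32 fell and 1 rose, the phosphatase gene Pdp1, while the kinase gene Pdk1 did not pass the threshold. Across all tested genes 28.7% fell and 29.5% rose, so that 58.2% were called in one direction or the other. The median log2 fold change was −1.18 over the 34 genes and 0.03 over all tested genes. In 33 of the 34 genes the injured wild-type libraries did not overlap the sham libraries, against 66.9% of all tested genes. With scaling by library size alone, the median of all genes was 0.57 and that of the 34 genes −0.64, which leaves a distance between them of −1.21 under either scaling. Under that scaling 29 genes fell and 1 rose.

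**Figure D1:**
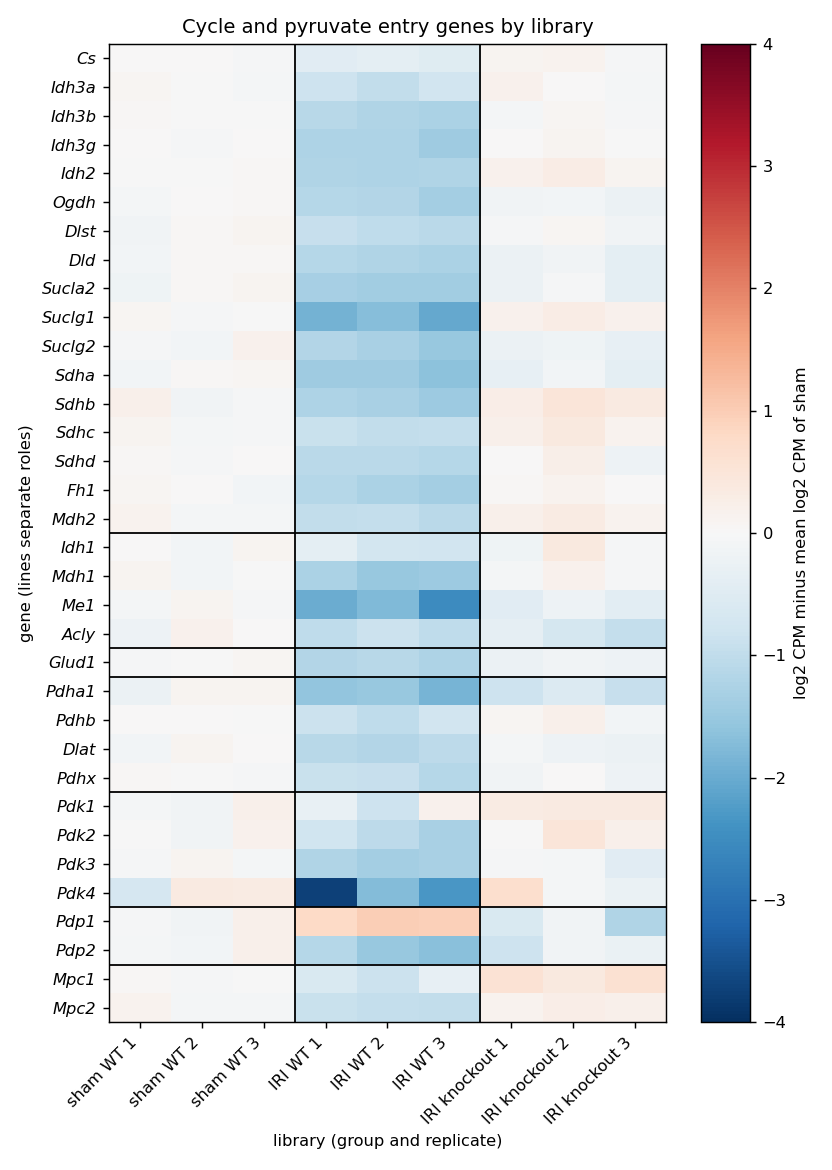
Level of each of the 34 genes in each of the 9 libraries, as log2 CPM minus the mean log2 CPM of the sham group, in colour from blue (lower) to red (higher), with horizontal lines between roles and vertical lines between groups. The 3 injured wild-type columns are blue for most genes and red for Pdp1, while the knockout columns are pale for most genes; with library size alone as the scaling, Cs and Pdk1 in injured wild-type would turn slightly higher than sham.

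All 17 cycle enzyme genes fell, by a median log2 fold change of −1.22, with the exception that under library size alone citrate synthase was 0.10 and not called. The largest fall was that of Suclg1, the alpha subunit shared by both forms of succinyl-CoA synthetase, which makes a nucleoside triphosphate directly from succinyl-CoA. Suclg1 measured 430, 397 and 408 CPM in sham, 110, 127 and 99.3 CPM in injured wild-type and 466, 508 and 460 CPM in injured knockout libraries. Every injured wild-type library lay far below the other 6. The knockout libraries lay above sham, though that difference did not pass edgeR's quasi-likelihood test (0.22 ± 0.11, adjusted p = 0.184). Suclg1 was 3.67-fold lower in injured wild-type than in sham (log2 fold change −1.88 ± 0.11, adjusted p = 3.10e-07). The smallest fall was that of Cs, citrate synthase, the entry step of the cycle, with 293, 293 and 282 CPM in sham, 213, 220 and 205 CPM in injured wild-type and 311, 318 and 278 CPM in injured knockout libraries. Here too the injured wild-type libraries were the lowest 3, by a narrower gap (log2 fold change −0.44 ± 0.09, adjusted p = 0.00148).

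The succinate dehydrogenase genes, whose complex also serves as complex II of the respiratory chain, fell by unequal amounts. Sdha, the flavoprotein subunit, changed by −1.49 ± 0.12 and Sdhb, the iron-sulfur subunit, by −1.33 ± 0.12 on the log2 scale. The membrane anchors Sdhc and Sdhd changed by −0.95 ± 0.10 and −1.10 ± 0.11. Sdhb measured 519, 411 and 440 CPM in sham, 192, 187 and 167 CPM in injured wild-type and 545, 630 and 586 CPM in injured knockout libraries, so that all 3 groups were free of overlap. Among the NAD-dependent isocitrate dehydrogenase subunits, the catalytic subunit gene Idh3a changed by −0.87 ± 0.10, and the genes of its partners Idh3b and Idh3g by −1.19 ± 0.09 and −1.31 ± 0.09. The mitochondrial NADP-dependent enzyme Idh2 changed by −1.22 ± 0.10. The 2-oxoglutarate dehydrogenase genes Ogdh (E1), Dlst (E2) and Dld (E3, which pyruvate dehydrogenase shares) changed by −1.22 ± 0.10, −1.02 ± 0.11 and −1.20 ± 0.10. Fumarase (Fh1) changed by −1.26 ± 0.10 and mitochondrial malate dehydrogenase (Mdh2) by −1.01 ± 0.10. Adjusted p-values of the 17 genes in this comparison were all at or below that of Cs.

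In injured knockout kidneys these transcripts were higher than in injured wild-type kidneys. Of the 34 genes, 32 rose and 1 fell, again Pdp1, and Acly did not pass the threshold. Across all tested genes 27.8% rose and 28.1% fell, which together made 55.9% called. The median log2 fold change was 1.11 over the 34 genes and −0.01 over all tested genes. In 33 genes the groups did not overlap, against 63.2% of all tested genes. With library size alone the medians were 0.53 and −0.59, and 28 genes rose and 1 fell. The comparison shares its injured wild-type libraries with the one above, so opposite signs in both are partly built in, and each is given here by its own values. All 17 cycle enzyme genes rose, by a median of 1.17, from Cs at 0.51 ± 0.09 (adjusted p = 0.000615) to Suclg1 at 2.09 ± 0.11 (adjusted p = 2.54e-07), except that under library size alone Cs was −0.07 and not called. Sdhb rose by 1.69 ± 0.12 and Idh2 by 1.41 ± 0.10, and Dld by 0.94 ± 0.10. Without knockout replicate 1 the count was unchanged, at 32 genes higher and 1 lower.

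**Figure D2:**
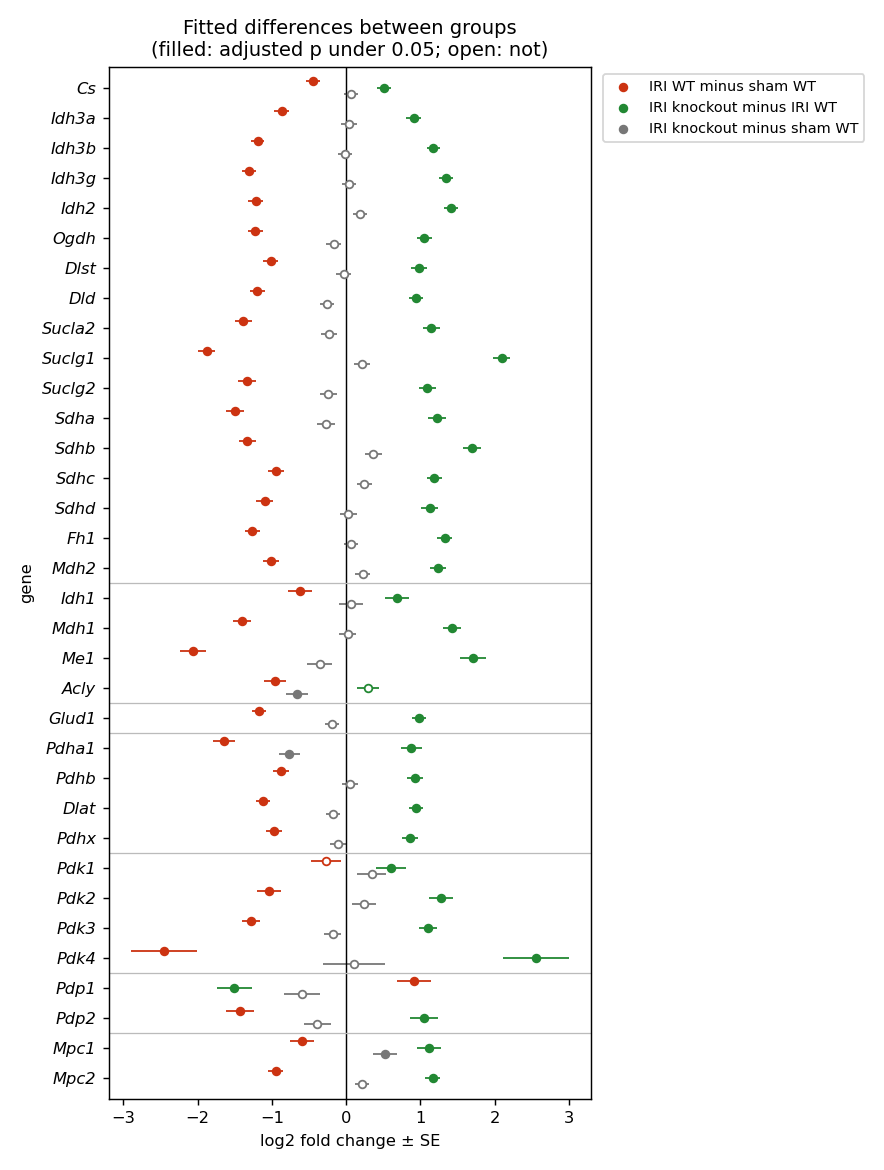
Fitted log2 fold change with its standard error for each of the 34 genes (rows, grouped by role) in 3 comparisons of 3 against 3 libraries, filled where the adjusted p was under 0.05. Injured wild-type minus sham lies left of 0 for 33 genes and injured knockout minus injured wild-type lies right of 0 for 33 genes, with Pdp1 on the other side in both; with library size alone as the scaling, Cs and Pdk1 (injury) and Cs and Acly (knockout) change side.

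Short sequence letters were looked up in the promoters of these genes. RefSeq promoter windows (GRCm38.p6, 250 bases before to 50 after a RefSeq start) existed for 31 of the 34 genes, and Idh3a, Sdhc and Pdp1 had none. On either strand, the letters GGGCGGG (reverse CCCGCCC), the core of a GC box, stood in windows of 20 of the 31 genes (64.5%), against 27.9% of 27025 genes in the table. The letters GCGCATGC (reverse GCATGCGC), the core of the NRF1 motif, stood in 3 of the 31 genes (9.68%), against 3.05%. The letters AAGGTCA (reverse TGACCTT), the core of the motif of estrogen-related receptors, stood in 2 of the 31 genes (6.45%), against 5.38%. A gene was counted if any of its windows held the letters, different motifs can share end bases, and copies of GGGCGGG can overlap each other, as in Glud1. The 27025 genes were not limited to the 15974 tested genes, and no share among tested genes was taken. The shares of the 31 genes therefore stand against an unlike background. No test was made on these shares, a match is a description and not a site, and the absence of the letters says only that they are not in the window. Ogdh, with 6 windows, holds all 3 motifs, but in separate windows, and is not shown. The 250 bases upstream of the RefSeq start are shown for Sdhb, Glud1, Suclg1 and Pdk4. Sdhb and Glud1 hold both GC box and NRF1 letters in 1 window. Suclg1 and Pdk4 had the largest fold changes of the cycle enzymes and of the kinases, in that order, and hold none of the 3 motifs. Each sequence is written 5′ to 3′ on the gene's strand, with the matched letters in capitals. Sdhb is at chr4:140961021-140961270 (plus strand), Glud1 at chr14:34310477-34310726 (plus), Suclg1 at chr6:73248255-73248504 (plus) and Pdk4 at chr6:5496279-5496528 (minus).
Sdhb: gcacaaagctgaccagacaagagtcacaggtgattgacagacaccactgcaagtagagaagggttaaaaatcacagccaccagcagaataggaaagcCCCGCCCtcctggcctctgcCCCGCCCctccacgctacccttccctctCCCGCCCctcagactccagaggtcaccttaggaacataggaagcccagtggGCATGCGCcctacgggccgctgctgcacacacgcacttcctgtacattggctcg
Glud1: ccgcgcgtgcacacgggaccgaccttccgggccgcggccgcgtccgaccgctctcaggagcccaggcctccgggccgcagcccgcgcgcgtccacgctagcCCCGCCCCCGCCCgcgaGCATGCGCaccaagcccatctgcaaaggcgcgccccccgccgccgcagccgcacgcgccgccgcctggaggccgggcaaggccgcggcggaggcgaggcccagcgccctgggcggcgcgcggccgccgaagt
Suclg1: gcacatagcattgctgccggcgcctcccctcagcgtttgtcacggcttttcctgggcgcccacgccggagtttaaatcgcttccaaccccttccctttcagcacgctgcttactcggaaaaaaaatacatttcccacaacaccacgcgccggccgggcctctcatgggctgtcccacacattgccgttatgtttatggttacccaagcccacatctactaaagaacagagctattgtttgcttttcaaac
Pdk4: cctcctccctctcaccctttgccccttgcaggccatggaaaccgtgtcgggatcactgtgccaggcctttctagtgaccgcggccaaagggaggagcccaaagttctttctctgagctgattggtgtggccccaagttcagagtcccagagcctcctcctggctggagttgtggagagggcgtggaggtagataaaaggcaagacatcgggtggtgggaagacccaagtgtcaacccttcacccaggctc

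The pyruvate dehydrogenase subunit genes fell with injury in 4 of 4 cases, by a median of −1.04, where 28.7% of all tested genes fell. In injured knockout against injured wild-type 4 of 4 rose, by a median of 0.90, where 27.8% of all tested genes rose. Under library size alone Pdha1 was 0.30 in that comparison and not called. Pdha1, the E1 alpha subunit that carries the regulatory phosphorylation sites, differed from the rest. It measured 257, 333 and 332 CPM in sham, 103, 107 and 84.4 CPM in injured wild-type and 172, 208 and 162 CPM in injured knockout libraries. The 3 groups did not overlap, and the knockout libraries lay between the other groups. Pdha1 was 3.13-fold lower in injured wild-type than in sham (log2 fold change −1.64 ± 0.14, adjusted p = 3.05e-06) and rose by 0.88 ± 0.14 in injured knockout (adjusted p = 0.000283). In the direct comparison of injured knockout with sham it was 1.70-fold lower (log2 fold change −0.77 ± 0.14, adjusted p = 0.00780). Its partner in E1, Pdhb, measured 187, 188 and 187 CPM in sham, 104, 92.5 and 111 CPM in injured wild-type and 196, 214 and 173 CPM in injured knockout libraries. Sham and knockout libraries of Pdhb overlapped, unlike those of Pdha1 (log2 fold change 0.05 ± 0.11, adjusted p = 0.758). Dlat, the E2 core, changed by −1.11 ± 0.10 with injury and by 0.94 ± 0.10 between the injured groups. Pdhx, which anchors E3 to the core, changed by −0.97 ± 0.11 and 0.86 ± 0.11. Exons of Pdha1 overlap those of Map3k15 on the other strand by 603 bases, and the sources used here do not say whether counting used strand. The summed counts of both genes gave −1.71, 0.94 and −0.77 in the 3 comparisons, with the same calls.

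The pyruvate dehydrogenase kinases, which oppose entry of pyruvate, moved mostly in the same direction as the enzyme they inhibit. With injury 3 of 4 fell, where 28.7% of all tested genes fell. In injured knockout against injured wild-type 4 of 4 rose, where 27.8% of all tested genes rose. Pdk4, the isoform known for induction by fasting and fatty acids, had the largest fitted change of all 34 genes and the largest error. It measured 125, 255 and 250 CPM in sham, 15.1, 59.7 and 40.1 CPM in injured wild-type and 320, 188 and 168 CPM in injured knockout libraries. Libraries of a group varied widely, yet the injured wild-type libraries stayed below all others. Pdk4 was 5.49-fold lower in injured wild-type than in sham (log2 fold change −2.46 ± 0.44, adjusted p = 0.000579) and rose by 2.56 ± 0.44 in injured knockout (adjusted p = 0.000466). Without knockout replicate 1, the library that stood apart and held the highest Pdk4 level, the rise was 2.22 (adjusted p = 0.000841). Pdk2, a widely expressed isoform, measured 255, 233 and 292 CPM in sham, 150, 126 and 106 CPM in injured wild-type and 255, 366 and 298 CPM in injured knockout libraries. Its injured wild-type libraries were again the lowest 3 (log2 fold changes −1.04 ± 0.16, adjusted p = 0.000196, and 1.27 ± 0.16, adjusted p = 4.53e-05). Pdk3 changed by −1.29 ± 0.12 and by 1.10 ± 0.12.

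Pdk1, the isoform best known as a target of hypoxia-inducible factor, was the exception among the kinases. It measured 30.0, 29.2 and 37.0 CPM in sham, 25.8, 18.1 and 35.9 CPM in injured wild-type and 39.7, 41.2 and 40.9 CPM in injured knockout libraries. Sham and injured wild-type libraries overlapped, and the knockout libraries were the highest 3 of the 9. The difference with injury was −0.27 ± 0.20 (95% interval −0.66 to 0.13, adjusted p = 0.275), with the sign turning to 0.29 under library size alone. Without injured wild-type replicate 3, it was −0.55 (adjusted p = 0.0177). Pdk1 rose in injured knockout against injured wild-type by 0.61 ± 0.20 (adjusted p = 0.0223), a call that ended without injured wild-type replicate 1 (adjusted p = 0.0608) or replicate 2 (adjusted p = 0.0577).

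Compared per kilobase of principal transcript, Pdk2 made up the largest share of the kinase transcripts in all 9 libraries. Its share was 61.9, 48.4 and 55.0% in sham libraries, 75.2, 63.7 and 60.8% in those of injured wild-type and 47.2, 64.5 and 63.2% in those of injured knockout. The Pdk4 share was 19.5, 34.2 and 30.4% in sham libraries, 4.90, 19.5 and 14.9% in those of injured wild-type and 38.1, 21.3 and 22.9% in those of injured knockout. No injured wild-type library had a higher Pdk4 share than any library of the other groups, though the highest of them rounds to the lowest sham value, and this separation ended with the length of all exons, where injured wild-type replicate 2 (24.9%) passed sham replicate 1 (24.8%). Summed over the 4 kinases, the level was 184, 214 and 237 CPM per kilobase in sham libraries, 88.6, 87.7 and 77.4 in those of injured wild-type and 241, 253 and 210 in those of injured knockout. These shares were not tested, and they depend on the transcript length chosen. With the length of all exons, Pdk4 exceeded Pdk2 in knockout replicate 1, at 45.6% against 40.4%.

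**Figure D3:**
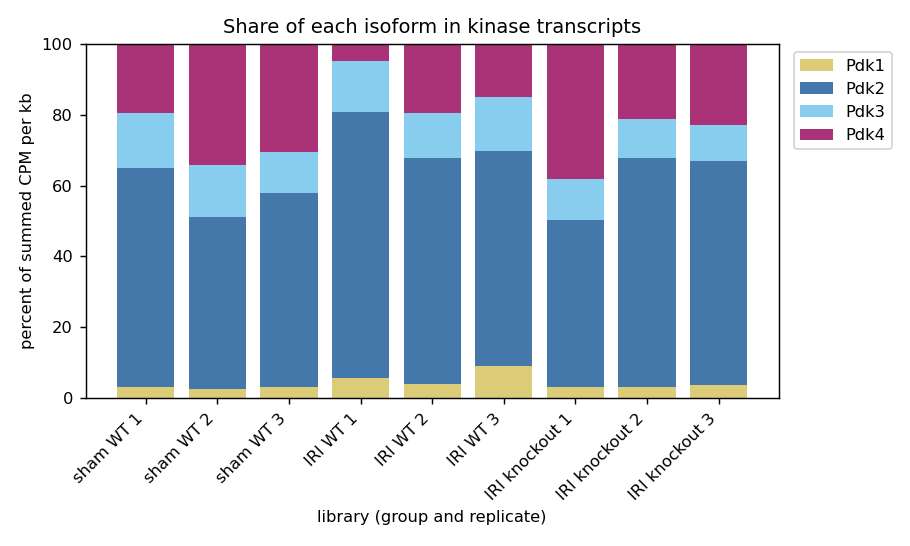
Share of Pdk1 to Pdk4 in their summed CPM per kilobase of principal transcript, as stacked bars from 0 to 100%, for each of the 9 libraries. Pdk2 is the widest band in every bar, and the Pdk4 band runs from 4.90 to 19.5% in the injured wild-type libraries and from 19.5 to 38.1% in the other 6.

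The phosphatases, which reverse the kinases, moved in opposite directions. Pdp1, the calcium-responsive isoform, measured 6.27, 5.87 and 7.50 CPM in sham, 11.3, 12.9 and 12.7 CPM in injured wild-type and 4.24, 5.96 and 2.82 CPM in injured knockout libraries. The injured wild-type libraries were the highest 3, while sham and knockout overlapped. Pdp1 rose with injury by 0.91 ± 0.23 (adjusted p = 0.00481) and fell by 1.51 on the log2 scale in injured knockout against injured wild-type (SE 0.24, adjusted p = 0.000224). It was also the lowest of the 34 genes per kilobase in every group, with 41 to 296 counts a library. Pdp2, the phosphatase isoform that is not calcium-responsive, measured 63.5, 62.0 and 77.5 CPM in sham, 30.4, 23.5 and 21.2 CPM in injured wild-type and 37.6, 61.4 and 56.0 CPM in injured knockout libraries. Its injured wild-type libraries were the lowest 3 (−1.43 ± 0.19, adjusted p = 5.49e-05, and 1.04 ± 0.19, adjusted p = 0.000586). The Pdp1 share of phosphatase transcripts per kilobase was 11.6% ± 0.2 in sham libraries, 40.3% ± 6.1 in those of injured wild-type and 10.4% ± 3.6 in those of injured knockout (SD, n = 3).

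Both genes of the mitochondrial pyruvate carrier fell with injury, where 28.7% of all tested genes fell. Both rose in injured knockout against injured wild-type, where 27.8% of all tested genes rose. The fitted fall of Mpc2 was smaller than the median of the cycle enzymes, a difference that was not tested. For Mpc1 this order depends on the pseudogene described below. Under library size alone Mpc1 was −0.04 with injury and not called. Mpc2 measured 430, 370 and 364 CPM in sham, 208, 200 and 195 CPM in injured wild-type and 430, 469 and 449 CPM in injured knockout libraries. The injured wild-type libraries were well below the rest (log2 fold change −0.95 ± 0.10, adjusted p = 1.04e-05), and Mpc2 rose by 1.162 ± 0.10 in injured knockout (adjusted p = 2.64e-06). Mpc1 was counted far lower, at 10.2, 9.69 and 9.88 CPM in sham, 6.44, 5.47 and 7.83 CPM in injured wild-type and 14.8, 13.1 and 15.0 CPM in injured knockout libraries. Its 3 groups did not overlap (−0.59 ± 0.16, adjusted p = 0.00783, and 1.12 ± 0.16, adjusted p = 0.000117). The Mpc1 level is uncertain, because the processed pseudogene Mpc1-ps on chromosome 12 matches 34.4% of its transcript at up to 99.7% identity and held 4141 counts against 1554 for Mpc1. Exons of Mpc1 also overlap those of 4930506C21Rik on the other strand by 480 bases. That entry held 202 counts, and no sum with it was made. Mpc1-ps measured 36.9 ± 2.9, 11.5 ± 1.4 and 35.1 ± 5.2 CPM in the 3 groups (SD, n = 3), so the pseudogene entry was lowest in injured wild-type. With Mpc1 and Mpc1-ps summed, the log2 fold changes were −1.37 for injury and 1.45 between the injured groups. The summed fall was thus larger than the cycle enzyme median of −1.22, while that of the Mpc1 entry alone was smaller.

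**Figure D4:**
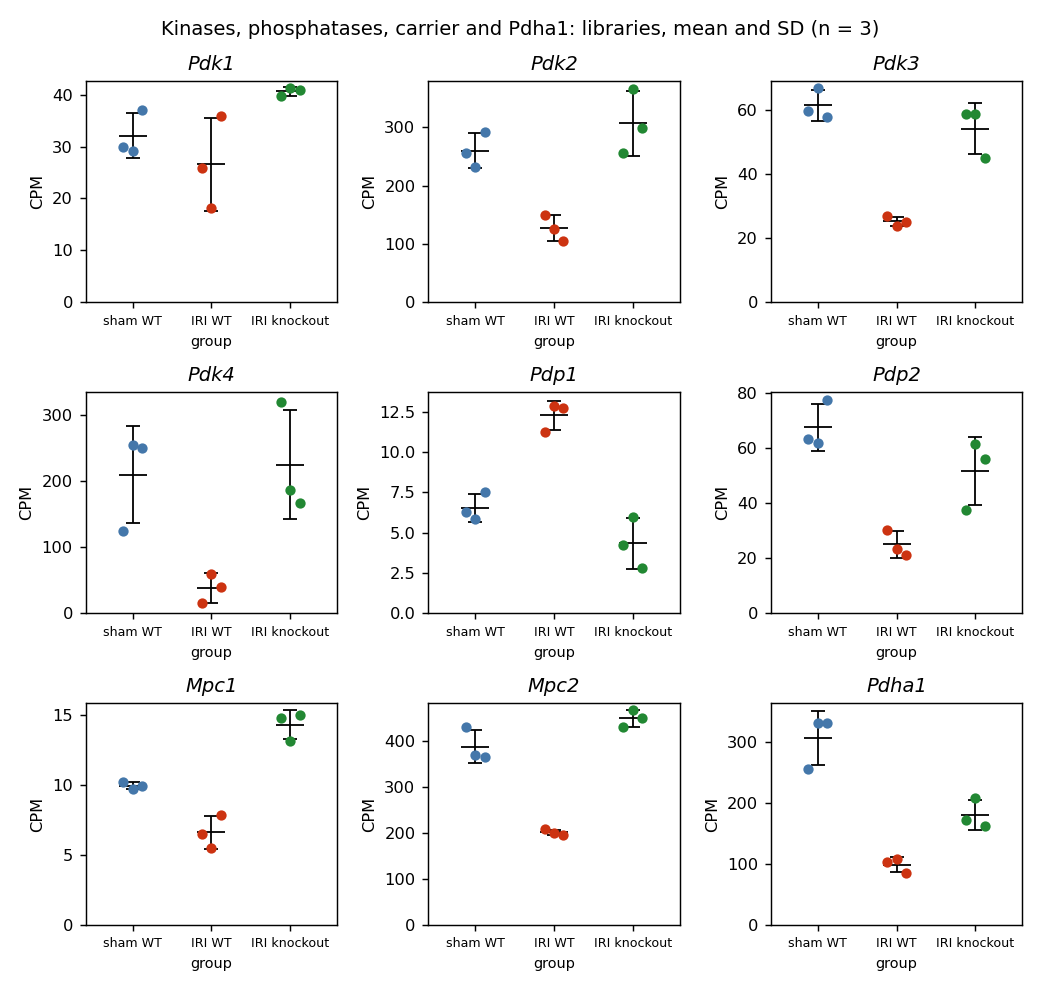
CPM of the 4 kinases, both phosphatases, both carrier subunits and Pdha1 in each library (points), with the mean and SD of each group of 3 (bars), on linear axes that start at 0. Pdk4 runs from 15.1 to 59.7 CPM in injured wild-type and from 125 to 320 elsewhere, Pdp1 is highest in injured wild-type, and Pdha1 in injured knockout lies between the other groups.

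The cytosolic enzymes that trade carbon with the cycle fell with injury in 4 of 4 cases, where 28.7% of all tested genes fell. Under library size alone Idh1 was −0.08 with injury and 0.10 between the injured groups, neither of them called. Me1, the NADP-dependent malic enzyme that turns malate into pyruvate, measured 787, 901 and 795 CPM in sham, 208, 243 and 144 CPM in injured wild-type and 608, 725 and 610 CPM in injured knockout libraries. The 3 groups were fully separate, with knockout between (−2.06 ± 0.18, adjusted p = 2.47e-06, and 1.71 ± 0.17, adjusted p = 8.33e-06). The difference of Me1 between injured knockout and sham did not pass edgeR's quasi-likelihood test (−0.35 ± 0.17, adjusted p = 0.164). Idh1, the cytosolic and peroxisomal isocitrate dehydrogenase, measured 341, 312 and 362 CPM in sham, 259, 202 and 199 CPM in injured wild-type and 298, 440 and 324 CPM in injured knockout libraries. Its injured wild-type libraries were the lowest 3, and its change with injury was the smallest of the 4 (−0.62 ± 0.16, adjusted p = 0.00514, and 0.69 ± 0.16, adjusted p = 0.00296). Mdh1, the cytosolic malate dehydrogenase of the malate-aspartate shuttle, changed by −1.41 ± 0.12 and 1.42 ± 0.12. Acly, which splits exported citrate into acetyl-CoA and oxaloacetate, measured 162, 210 and 190 CPM in sham, 92.8, 104 and 93.0 CPM in injured wild-type and 145, 114 and 97.2 CPM in injured knockout libraries. The knockout libraries of Acly overlapped the injured wild-type libraries and lay below all sham libraries. Acly fell with injury (−0.96 ± 0.15, adjusted p = 0.000182). Between the injured groups its difference was 0.30 ± 0.15 (95% interval 0.01 to 0.58, adjusted p = 0.105), with the sign turning to −0.28 under library size alone. Leaving out knockout replicate 3 brought it to 0.43 (adjusted p = 0.0289). Glud1, the glutamate dehydrogenase that feeds 2-oxoglutarate, measured 543, 564 and 593 CPM in sham, 252, 261 and 239 CPM in injured wild-type and 484, 516 and 488 CPM in injured knockout libraries. Injured wild-type was lowest by a wide gap (−1.18 ± 0.09, adjusted p = 1.56e-06, and 0.98 ± 0.09, adjusted p = 5.20e-06).

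Injured knockout and sham libraries were then compared directly. Of the 34 genes 1 rose, Mpc1, 2 fell, Pdha1 and Acly, and 31 did not pass the threshold, where 17.6% of all tested genes were called (8.13% higher and 9.48% lower). The median log2 difference was 0.02 over the 34 genes and 0.01 over all tested genes. Among the 17 cycle enzymes 0 passed under edgeR's quasi-likelihood test, with 4 at an unadjusted p under 0.05, 2 under the DESeq2 Wald test and 1 under limma-voom, and with differences from −0.27 ± 0.12 (Sdha) to 0.36 ± 0.12 (Sdhb). A missed threshold does not show equal levels. The 95% interval was 0.14 to 0.59 for Sdhb (adjusted p = 0.0511), −0.50 to −0.05 for Sdha (adjusted p = 0.124) and −0.12 to 0.24 for Cs (adjusted p = 0.659). Knockout and sham libraries did not overlap in 16 of the 34 genes, against 36.3% of all tested genes. In injured knockout Acly was 1.58-fold below its sham level (log2 fold change −0.66 ± 0.15, adjusted p = 0.0139), a call that ended without sham replicate 2 (adjusted p = 0.0701) or replicate 3 (adjusted p = 0.0505). The rise of Mpc1 (0.53 ± 0.16, adjusted p = 0.0422) ended when its counts were summed with those of Mpc1-ps (0.08, adjusted p = 0.615), and in 7 of the 9 fits that left out 1 library, knockout replicate 1 among them (adjusted p = 0.0737). Pdha1 stayed called in all 9 such fits. The count of all called genes in this comparison rested on single libraries, and fell to 640 without sham replicate 2 and to 1064 without sham replicate 3, from 2813.

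Ratios of a pair of genes within a library do not depend on how libraries are scaled. For 16 pairs, the log2 ratio of counts was compared between groups by an exact 2-sided permutation test, which with 3 against 3 libraries cannot go below p = 0.1, and 48 such tests were made. All values of 0.1 rose to 0.166 after Benjamini-Hochberg adjustment, so no ratio passed a threshold of 0.05. The ratio of Pdha1 to Cs was −0.19, 0.18 and 0.24 in sham libraries, −1.05, −1.04 and −1.28 in those of injured wild-type and −0.86, −0.62 and −0.78 in those of injured knockout. The 3 groups did not overlap, and each pair of groups gave exact p = 0.1. The ratio of Pdk2 to Pdha1 was −0.01, −0.52 and −0.19 in sham libraries, 0.54, 0.23 and 0.32 in those of injured wild-type and 0.57, 0.82 and 0.88 in those of injured knockout, so that it was lowest in sham and highest in knockout without overlap. This order depends on Pdha1, which had the largest fall of the 4 subunit genes (−1.64) and stayed below sham in knockout (−0.77). With injury Pdk2 itself fell by more than Pdhb (−1.04 against −0.87). Ratios of the kinases to the other subunits were not taken. For Pdp1 to Pdha1 the mean was −5.54 ± 0.24 in sham libraries, −2.99 ± 0.24 in those of injured wild-type and −5.42 ± 0.37 in those of injured knockout (SD, n = 3). Injured wild-type was apart from both, while sham and knockout overlapped (exact p = 0.6). Mpc2 to Cs gave 0.42 ± 0.12, −0.08 ± 0.05 and 0.57 ± 0.11, and Glud1 to Cs gave 0.97 ± 0.09, 0.24 ± 0.01 and 0.71 ± 0.09 in the same order (SD, n = 3). Both were lowest in injured wild-type without overlap. Their denominator Cs had the smallest fall of the 17 cycle enzymes (−0.44), as in the ratio of Pdha1 to Cs. Ratios of these genes to other cycle enzymes were not taken. Sucla2 to Suclg2, the alternative beta subunits that set the ATP or GTP form of succinyl-CoA synthetase, gave −1.01 ± 0.13, −1.05 ± 0.15 and −1.01 ± 0.09 (SD, n = 3), and the groups overlapped in all 3 comparisons (exact p = 0.6, 0.7 and 1.0). The difference with injury was −0.04, with a pooled SD of 0.14.

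**Figure D5:**
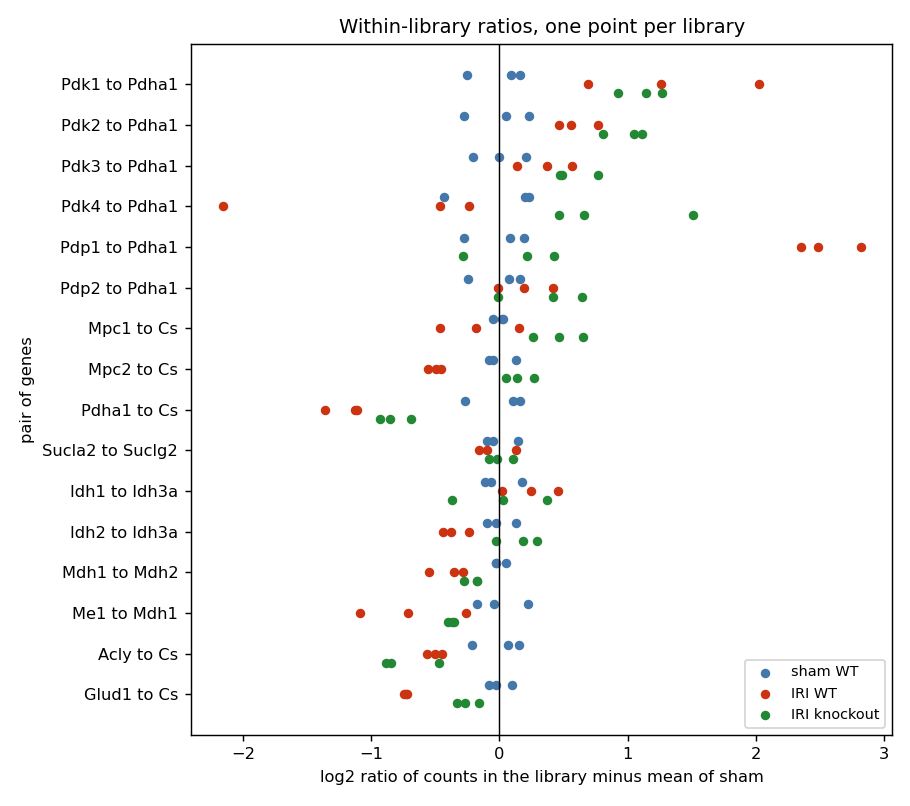
Log2 ratio of the counts of 16 pairs of genes in each of the 9 libraries, minus the mean of the 3 sham libraries, so that 0 on the x axis is the sham mean. Pdp1 to Pdha1 is set far to the right in injured wild-type, Pdha1 to Cs lies left of 0 in both injured groups, and Sucla2 to Suclg2 overlaps across all 3 groups.

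Per kilobase of principal transcript, Mdh1 had the highest level of the 34 genes in sham, at 703 ± 50.1 CPM per kilobase (SD, n = 3), and kept that place in both injured groups. Sdhb (400 ± 48.9), Mpc2 (379 ± 35.3), Mdh2 (355 ± 29.0) and Idh2 (328 ± 10.3) followed, and neighbours among these 4 differed by less than the SD of the higher one. At the other end in sham stood Mpc1 (rank 32), Pdk1 (rank 33) and Pdp1 (rank 34). The rank of Mpc1 is uncertain, since it leaves out Mpc1-ps, which measured 36.9 CPM in sham against 9.92 CPM for Mpc1. The place of Mpc2 depends on the annotation, since with the length of all exons it was rank 22 in sham.

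Other genes of the pathway were taken from a list of 32, of which 29 were tested. With injury 21 fell and 1 rose (median −0.82), where 28.7% of all tested genes fell and 29.5% rose. In injured knockout against injured wild-type 22 rose and 1 fell (median 0.999), where 27.8% of all tested genes rose and 28.1% fell. The largest changes were those of Pcx, the pyruvate carboxylase that makes oxaloacetate, of Dhtkd1, a 2-oxoadipate dehydrogenase subunit, and of Adhfe1, a hydroxyacid-oxoacid transhydrogenase. Pcx measured 815, 913 and 1042 CPM in sham, 143, 162 and 80.2 CPM in injured wild-type and 569, 936 and 670 CPM in injured knockout libraries. Its injured wild-type libraries lay far below all others (−2.84 ± 0.26, adjusted p = 4.06e-06, and 2.49 ± 0.26, adjusted p = 9.31e-06). Dhtkd1 changed by −2.56 ± 0.17 and 2.21 ± 0.17, and Adhfe1 by −2.53 ± 0.12 and 2.38 ± 0.12. The one gene of the list in the opposite direction was Me2, a mitochondrial malic enzyme, at 0.68 ± 0.18 (adjusted p = 0.00617) and −0.66 ± 0.18 (adjusted p = 0.00818). Against sham, where 17.6% of all tested genes were called, injured knockout libraries had 1 higher gene of the list, the 2-oxoglutarate carrier Slc25a11 (0.34 ± 0.10, adjusted p = 0.0443). They had 1 lower gene, Pdpr, a regulatory subunit of pyruvate dehydrogenase phosphatase (−1.89 ± 0.30, adjusted p = 0.00540). Pdpr measured 15.9, 37.0 and 41.1 CPM in sham, 5.01, 5.64 and 5.64 CPM in injured wild-type and 9.43, 9.65 and 6.39 CPM in injured knockout libraries. Both injured groups lay below all sham libraries.

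A list of 20 mitochondrial housekeeping genes (import, chaperones, proteases, cristae) served as a mark of mitochondrial genes outside the cycle. With injury 15 fell and the other 5 did not pass (median −0.81), against 28.7% of all tested genes that fell. In injured knockout against injured wild-type 18 rose and the other two did not pass (median 0.71), against 27.8% of all tested genes that rose. The largest falls were those of the chaperone genes Hspd1 (−1.72 ± 0.13) and Hspa9 (−1.31 ± 0.12) and the protease gene Lonp1 (−1.25 ± 0.11). The summed level of this list was 5130 to 5168 CPM in sham, 2366 to 2693 CPM in injured wild-type and 4518 to 4937 CPM in injured knockout libraries. Proximal tubule markers fell in 19 of 20 cases (median −2.19), a larger median than that of the cycle enzymes, and rose in 19 of 20 in injured knockout against injured wild-type (median 1.84), with the same shares of all tested genes beside them.

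Of 12 genes of transcription regulators known to act on mitochondrial or kinase genes, 9 fell with injury and the other 3 did not pass, where 28.7% of all tested genes fell. Ppara, a receptor for fatty acids that is known to induce Pdk4, measured 17.9, 42.7 and 61.1 CPM in sham, 5.79, 6.401 and 3.27 CPM in injured wild-type and 14.03, 11.8 and 13.6 CPM in injured knockout libraries. Its 3 groups did not overlap, with knockout between (−2.98 ± 0.39, adjusted p = 5.20e-05, and 1.35 ± 0.38, adjusted p = 0.0106). The coactivator gene Ppargc1b changed by −1.159 ± 0.26 and 1.14 ± 0.26, Foxo1 by −0.96 ± 0.14 and 0.41 ± 0.14, and the estrogen-related receptor gene Esrra by −0.75 ± 0.11 and 0.91 ± 0.11. In injured knockout against injured wild-type 6 of the 12 rose and 1 fell, the glucocorticoid receptor gene Nr3c1 (−0.49 ± 0.12, adjusted p = 0.00390). Of all tested genes, 27.8% rose and 28.1% fell in that comparison, and 55.9% were called in either direction. The 7 called of 12 are near that joint share, while the 6 that rose are 50% of the list, which was not tested as a set. Against sham 5 were lower in injured knockout and the other 7 did not pass, where 9.48% of all tested genes were lower. These were Ppara (−1.63 ± 0.37), Foxo3 (−0.69 ± 0.14), Nr3c1 (−0.65 ± 0.12), Foxo1 (−0.55 ± 0.14) and Gabpa (−0.40 ± 0.10).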

How the data were processed

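RNA was measured in 9 whole-kidney libraries, made with a NEBNext Ultra kit per the labels. The deposited values were raw counts per Ensembl gene, with no normalization. The submitters' processing notes name mm10 and DESeq2 1.16.1, and the sources used here do not give the aligner, the counter or the strand setting. Symbols came from GENCODE vM21 and promoter sequences from RefSeq.

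Counts were tested with edgeR 4.0.16 (quasi-likelihood, TMM, filterByExpr) over all 9 libraries, 2-sided, at a threshold of 0.05 on p-values adjusted by Benjamini-Hochberg across the 15974 tested genes. Intervals are the estimate ± 1.96 SE, a normal multiplier, and are narrower than the quasi-likelihood test would give. CPM use TMM library sizes, ratios add 0.5 to each count, and near-identical copies were sought with blastn 2.17.0 (95% identity over 100 bases). The procedure was also run on simulated counts in which 200 genes were changed, in both directions. In the data 58.2% of tested genes were called with injury, so the simulation cannot show how the scaling behaves here. Alternatives were other scalings, filters and tools (limma 3.58.1, DESeq2 1.42.0), a replicate block and leaving out each library. Sums with Mpc1-ps and with Map3k15 were chosen after seeing the data. The members and lists were chosen with earlier results of these data known. Any member could be named, and other genes by size of change within their list. Nnt was left out because 2 identifiers share its symbol, and Kgd4 and Glud2 were not matched.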

Additional observations from a re-analysis of the deposited data

How the results depend on the processing

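Over the 34 genes, the counts called moved with the scaling. Library size alone gave 29 lower and 1 higher for injury and 28 higher and 1 lower between the injured groups, and library size without the 20 most abundant genes gave 29 and 1 in both. Over all tested genes the same settings gave 8915 and 7860 higher and 1953 and 2407 lower with injury, and 1852 and 2563 higher and 9119 and 7373 lower between the injured groups. Calls that were higher made up 82.0 and 76.6% for injury, against 50.6% with TMM, and 16.9 and 25.8% between the injured groups, against 49.7%. Both settings turned Pdk1 with injury (0.29 and 0.16) and Acly between the injured groups (−0.28 and −0.0838), and library size alone turned Cs (0.10 and −0.0743). In injured knockout against sham, small differences changed sign for Sdhd (−0.00812) and Mdh1 (−0.0169) with library size alone, and for Idh3b (0.0197) and Dlst (0.00387) without the 20 most abundant genes. The members higher in that comparison numbered 2 without the 20 most abundant genes, with the DESeq2 Wald test, with limma-voom and with a mean CPM of at least 1, and 0 with no filter on low counts. The replicate block also gave 0, with Mpc1 at 0.52 (adjusted p = 0.0585), and same-numbered libraries did not deviate together (correlations −0.12 to 0.06). The cause of these moves was not tested.

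Leaving out one library at a time gave 32 to 33 members lower and 1 higher with injury, 31 to 33 higher and 1 lower between the injured groups, and 0 to 2 higher and 1 to 3 lower against sham. All genes against sham ranged from 253 to 1318 higher and from 387 to 1550 lower. The fewest came without sham replicate 2, and sham replicate 3 (426 and 638) and knockout replicates 2 (766 and 917) and 3 (733 and 827) moved them by over 1.5 times. Against sham, such fits turned the sign of Idh3a (−0.0385 to 0.10), Idh3b (−0.0628 to 0.00536), Dlst (−0.0970 to 0.0215), Sdhd (−0.0836 to 0.13), Idh1 (−0.12 to 0.17), Mdh1 (−0.0573 to 0.0735), Pdhb (−0.0188 to 0.13) and Pdk4 (−0.24 to 0.27), none of which was called. With size scalings Cs, Idh1 and Mpc1 (injury) and Cs, Idh1, Pdk1 and Pdha1 (between the injured groups) were not called in 1 or both. A fit of only the groups compared ended the call of Pdk1 (0.57, adjusted p = 0.0553). Against sham, Sdhb was called in 5 settings beside those that leave out a library, and Dld, Me1, Pdp1 and Pdp2 in 1 setting each. Of the 48 ratio differences, all moved by less than 1 pooled SD with a pseudocount of 0 or 5 and without each library. Depth limits the reading mostly for Pdp1 and Mpc1.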
